A study of Mus musculus with 4 samples.

Results

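T cell receptor (TCR) signals in the thymus leave a trace in a small group of genes: the zinc finger factors Egr1, Egr2 and Egr3, the orphan nuclear receptors Nr4a1, Nr4a2 and Nr4a3, their signalling partners Nab2 and Nfatc1, and the surface proteins Cd69 and Cd5. These 10 genes were followed in CD4 single-positive thymocytes with and without the CD4-Cre transgene on a Cul3-floxed background. They were represented by 23 probe sets, those that the platform annotation gives to 1 of the 10 symbols and to no other gene, out of 34945 single-gene probe sets for 18193 genes. Of the 23, 22 lay above background on at least 2 of the 4 arrays and were tested, and all 10 genes kept at least 1 of them.

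Engagement of the TCR activates the Ras-ERK cascade and raises intracellular calcium. ERK acts through serum response factor and its partners to induce the Egr genes within minutes, while calcium activates the phosphatase calcineurin, which moves NFAT proteins to the nucleus and feeds the Nr4a genes. In the thymus the Egr and Nr4a genes are induced at positive selection and more strongly by negative selection and agonist selection. Their RNAs decay quickly, so their level in a sorted population can reflect how recently its cells received a signal.

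The study hybridised 4 arrays of cells sorted from mice of B6 background. LM mice, 2 arrays, carried floxed Cul3 alleles without CD4-Cre (CD4Cre-Cul3fl/fl), and KO mice, 2 arrays, carried the same floxed alleles with it (CD4 Cre+Cul3fl/fl). Cul3 is the scaffold of a family of ubiquitin ligases, and Cre under CD4 control acts in all cells that have passed the double-positive stage, CD8 lineage cells included. The sort took CD4 single-positive thymocytes that did not bind the PBS57-loaded CD1d tetramer and carried neither CD25 nor the gamma delta TCR. No array came from Cre-positive mice without floxed Cul3, so Cre and the loss of Cul3 cannot be told apart. Whether both samples of a genotype were taken from different animals is not in the labels. The p-values therefore reflect only how much these samples vary, and that variation could be technical.

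Values are deposited probe set signals, and differences are KO minus LM on the log2(signal + 16) scale after quantile normalization, ± SE, from limma. A gene is called where its p, adjusted over all 11255 genes tested, is below 0.05. All 7 genes found among 8 markers of CD4 single-positive cells were above background on all arrays, with summed signals of 44720 and 47210 in LM and of 48130 and 45520 in KO. The targeted gene did not separate the groups: Cul3 gave 5333 and 5724 in LM against 5380 and 5577 in KO by its brightest probe set, a difference of -0.01 ± 0.09 (adjusted p = 0.994). Where this probe set lies relative to the floxed exons is not given in the sources used here, so it is no check of the deletion, and KO below means the arrays labelled KO.

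Promoters of the Nr4a family are shown first, because the 3 genes share a sequence feature while their measured differences, given below, run from 0.01 to 0.87. RefSeq promoter sequences (build GRCm38.p6) were used for 6 of the 10 genes, in 10 windows of 250 bases before an annotated start. TGACG on either strand, the core of the cyclic AMP response element, binds CREB and ATF factors that TCR signals also activate. Each Nr4a promoter held 4 matches. At least 1 match was found in 6 of the 10 windows, for 4 of the 6 genes (the 3 Nr4a genes and Egr2), and in 17.8% of all 32851 promoter windows. Capitals mark these matches in the first 3 sequences, all written 5′ to 3′ on the strand of the gene.
Nr4a1 promoter, chr15:101266596-101266845, plus strand: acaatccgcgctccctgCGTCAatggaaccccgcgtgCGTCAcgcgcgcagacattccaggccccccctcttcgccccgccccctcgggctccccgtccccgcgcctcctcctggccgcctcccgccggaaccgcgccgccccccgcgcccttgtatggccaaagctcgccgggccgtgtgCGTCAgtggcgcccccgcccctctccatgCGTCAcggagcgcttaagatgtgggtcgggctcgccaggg
Nr4a2 promoter, chr2:57124004-57124253, minus strand: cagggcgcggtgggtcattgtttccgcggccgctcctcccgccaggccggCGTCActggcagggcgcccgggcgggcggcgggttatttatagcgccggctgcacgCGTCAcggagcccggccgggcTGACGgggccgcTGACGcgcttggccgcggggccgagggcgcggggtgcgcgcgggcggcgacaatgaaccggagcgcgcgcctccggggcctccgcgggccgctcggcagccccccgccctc
Nr4a3 promoter, chr4:48045055-48045304, plus strand: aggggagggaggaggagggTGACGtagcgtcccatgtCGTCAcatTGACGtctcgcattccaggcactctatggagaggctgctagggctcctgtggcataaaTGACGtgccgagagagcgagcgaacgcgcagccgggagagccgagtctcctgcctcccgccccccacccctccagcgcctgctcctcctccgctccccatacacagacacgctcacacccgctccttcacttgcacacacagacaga
The Egr2 promoter is shown for its CArG box, the binding sequence of serum response factor, which is in capitals. A CArG box was found in 4 of the 5 overlapping or neighbouring Egr2 windows and in 1.47% of all windows. The 4 windows do not all hold the same match, and those that overlap share theirs. No window of Nr4a1, Nr4a2, Nr4a3, Nab2 and Cd5 held a CArG box.
Egr2 promoter, chr10:67537619-67537868, plus strand: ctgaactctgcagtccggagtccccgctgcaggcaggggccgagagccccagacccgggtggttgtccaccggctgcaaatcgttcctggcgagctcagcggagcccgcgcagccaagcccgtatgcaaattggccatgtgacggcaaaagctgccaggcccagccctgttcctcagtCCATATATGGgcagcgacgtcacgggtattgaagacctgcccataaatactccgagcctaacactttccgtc
The CArG box began 72 bases before this start, and the same window also held 2 TGACG matches, which are not capitalised. The nearest TGACG match began 40 bases before the start in Nr4a1, 111 in Nr4a2 and 147 in Nr4a3. GCGTGGGCG or GCGGGGGCG, the sequences that EGR proteins bind, were found in Nr4a1 alone of the 6 genes and in 3.06% of all windows. AAAGGTCA, the sequence that NR4A monomers bind, was found in 0 of the 6 genes and in 1.34% of all windows. The short core GGAAA of NFAT sites was found for 2 of the 6 genes and in 55.6% of all windows. These matches are letters in a window, not evidence of binding.

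The comparison asked whether the RNA traces of recent TCR signals differ between CD4 single-positive cells of the 2 genotypes. The 10 genes differed in direction. Nr4a2 and Cd69 were higher on both KO arrays than on both LM arrays, Egr1 was lower on both, and the other 7 overlapped. In limma, 0 of the 10 genes were called, against 0.275% of all genes tested, and 3 (Nr4a2, Egr1 and Cd69) had an unadjusted p below 0.05, against 8.4% of all genes. Groups that do not overlap, 3 of 10 here, were found for 37.4% of all genes, 19.1% with KO higher (2 of the 10) and 18.3% with KO lower (1 of the 10). The median difference of the 10 genes was 0.04, with 6 higher and 4 lower, against 0.00 over all genes, and the median absolute difference was 0.18 against 0.17. In this bulk RNA, fewer signalled cells and less RNA per cell cannot be told apart. With 2 arrays a group, an exact two-sided permutation test of a single gene cannot give a p below 0.333.

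**Figure D1:**
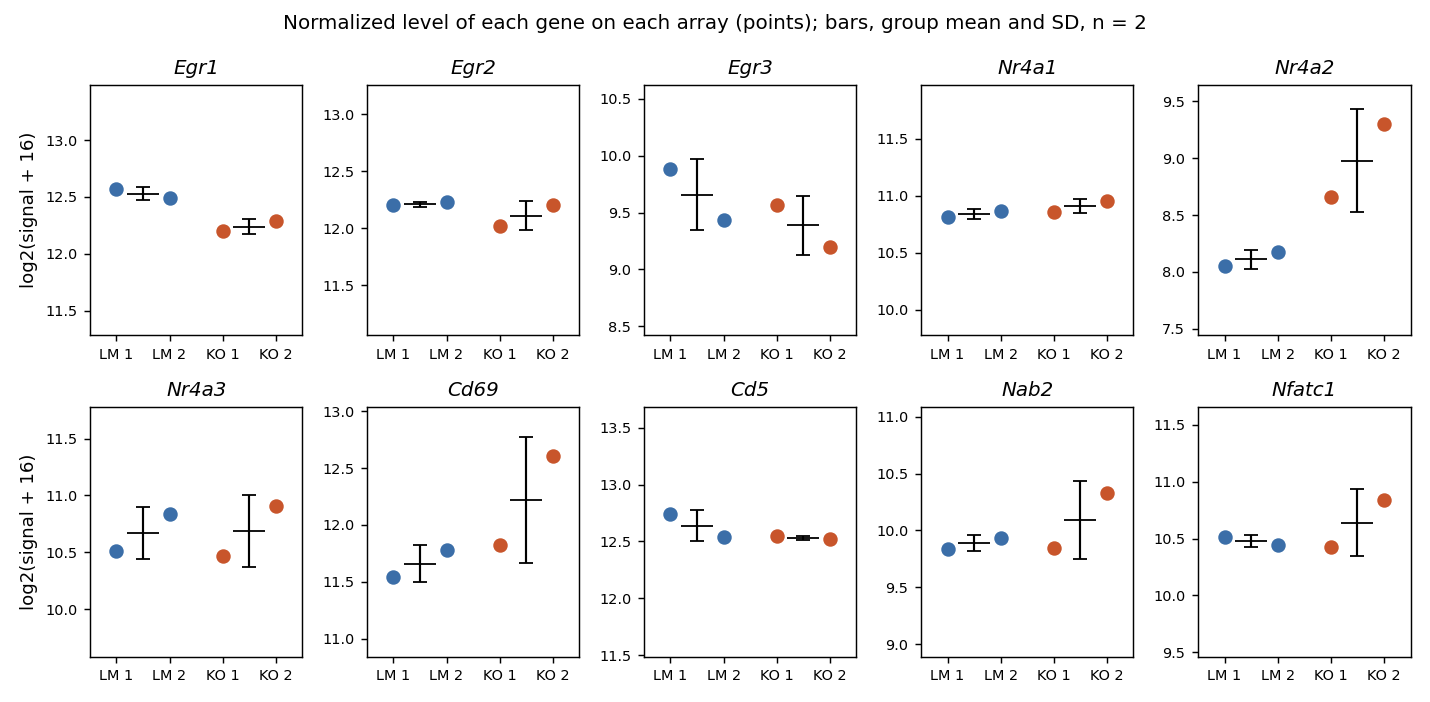
Normalized log2(signal + 16) of the brightest probe set of each of the 10 genes on the 4 arrays (points, blue LM and orange KO), with the mean and SD of each group (n = 2). All panels span the same range of log2 units; Egr1 was lower on both KO arrays, Nr4a2 and Cd69 were higher on both, and the KO arrays lay farther apart than the LM arrays for 8 of the 10 genes.

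Egr1 is the first of the early growth response factors to appear after a TCR signal and acts in positive selection. Its single probe set (1417065_at) read 5854 and 5969 in LM and 4692 and 4930 in KO. Both KO arrays lay below both LM arrays, and the replicates of each group were within 1.05-fold of each other. The log2 mean was 12.53 ± 0.06 (SD, n = 2) in LM and 12.24 ± 0.06 (SD, n = 2) in KO, a difference of -0.29 ± 0.10 with a limma adjusted p of 0.394. The ratio of KO to LM was 0.817, with a 95% interval of 0.705 to 0.946. With any 1 array left out it stayed between -0.34 and -0.25.

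Egr2 and Egr3 limit activation and support development of NKT cells and survival of selected thymocytes. Egr2 was read by 2 probe sets. The brighter (1427683_at) gave 4569 and 4909 in LM and 4148 and 4665 in KO, overlapping groups with a difference of -0.10 ± 0.11 (limma adjusted p = 0.879). The other (1427682_a_at) gave 2467 and 2506 in LM and 2248 and 2888 in KO, so that the KO arrays lay on either side of the LM pair (0.04 ± 0.15). The 95% interval of the brighter set, -0.34 to 0.13, still leaves room for a fall as large as that of Egr1.

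Egr3 gave opposite signs from its 2 probe sets. The brighter (1436329_at) read 936 and 671 in LM and 738 and 578 in KO, a difference of -0.27 ± 0.22 (limma adjusted p = 0.834), with replicates of LM differing by 1.40-fold. The dimmer (1421486_at) read 25.8 and 180 in LM and 221 and 233 in KO, a fitted difference of 1.37 ± 0.57 (adjusted p = 0.574 over probe sets), with only 1 of the 2 LM arrays above background. That difference came largely from LM array 1, and it was 0.23 without that array. Without LM array 2 it was 2.52 and passed the threshold, in a fit where the probe set's own spread did not count. The direction of Egr3 is therefore not settled by these arrays.

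Nab2, a corepressor that binds EGR proteins and is itself induced by them, read 909 and 962 in LM and 897 and 1262 in KO. KO array 2 lay above the other 3, and KO array 1 was close to LM array 1, below it in deposited signal and above it once normalized. The difference was 0.20 ± 0.20 (limma adjusted p = 0.870), and it was -0.04 without KO array 2 and 0.44 without KO array 1.

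Among the Nr4a receptors, which act as transcription factors without a known natural ligand in T cells, Nr4a1 (Nur77) is the usual reporter of TCR signal strength. Its probe set (1416505_at) read 1767 and 1868 in LM and 1861 and 1954 in KO. The 4 arrays overlapped within a narrow band, and the difference was 0.07 ± 0.14 (limma adjusted p = 0.952). The 95% interval of the fold, from the spread of these samples, was 0.843 to 1.31.

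Nr4a2 (Nurr1) had the largest difference of the 10 genes when each was read by its brightest probe set. With the mean of all probe sets, 1 of which was below background on all arrays, its difference was 0.53, below those of Cd69 (0.56) and Egr3 (0.55). With the mean of the probe sets above background it was 0.63, above both. Its brightest probe set (1450749_a_at) read 256 and 261 in LM and 384 and 618 in KO, so that both KO arrays exceeded both LM arrays and the KO replicates themselves differed by 1.61-fold. The log2 mean was 8.11 ± 0.09 (SD, n = 2) in LM and 8.98 ± 0.45 (SD, n = 2) in KO, a difference of 0.87 ± 0.27, or 1.83-fold (95% interval 1.22 to 2.73), with a limma adjusted p of 0.329. It ranked 232nd by p among the 11255 genes tested, and the difference was 0.55 without KO array 2 and 1.19 without KO array 1.

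The other Nr4a2 probe sets gave the same sign with very different sizes. The difference was 1.41 ± 0.34 for 1447863_s_at (253 and 126 in LM, 370 and 694 in KO). Its limma adjusted p of 0.173 over probe sets was the lowest of all 22. This probe set passed the threshold with median centring (1.37) and without KO array 1 (1.84). It also passed without LM array 1 (1.80), where its own spread did not count. The brightest Nr4a2 probe set also passed over probe sets without KO array 1, but not in the fit with 1 value per gene (1.19, adjusted p = 0.072). The suffix _s_at marks probe sets that can match several transcripts. The difference was 0.56 ± 0.35 for 1433422_at (135 and 108 in LM, 229 and 161 in KO) and 0.29 ± 0.31 for 1450750_a_at (168 and 172 in LM, 187 and 249 in KO). For 1455034_at (174 and 166 in LM, 153 and 210 in KO) it was 0.03 ± 0.32, and the groups overlapped. In all, 5 of 5 tested Nr4a2 probe sets were higher in KO, and 4 of the 5 did not overlap, against 18.3% of all probe sets with KO higher. All 5 are assigned to 1 gene and read in the same 4 samples, so they are not independent. The remaining one (1433423_at) read 13.0 and 7.4 in LM and 12.3 and 10.1 in KO, below background on all arrays.

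Nr4a3 (Nor1), which acts redundantly with Nr4a1 in thymocyte deletion and regulatory T cell development, was read by 3 probe sets. The brightest (1438796_at) gave 1441 and 1825 in LM and 1394 and 1901 in KO. Each group held 1 lower and 1 higher array, and the difference was 0.01 ± 0.19 (limma adjusted p = 0.995). A dimmer one (1421080_at) gave 785 and 617 in LM and 968 and 1017 in KO, with no overlap and a difference of 0.51 ± 0.20 (adjusted p = 0.515 over probe sets). The third (1421079_at) gave 292 and 379 in LM and 369 and 345 in KO, again overlapping (0.09 ± 0.26). All 3 were positive and none was called.

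Nfatc1, the NFAT family member whose short isoform is induced through its own NFAT-driven promoter, had 5 probe sets. The brightest (1417621_at) read 1442 and 1378 in LM and 1361 and 1802 in KO, a difference of 0.16 ± 0.18 (limma adjusted p = 0.884) carried by KO array 2, since it was -0.05 without that array. The other 4 were lower in KO, at -0.36 ± 0.30 (1425761_a_at), -0.36 ± 0.29 (1447085_s_at), -0.20 ± 0.23 (1428479_at) and -0.04 ± 0.26 (1447084_at). Only 1425761_a_at had groups that did not overlap, at 210 and 257 in LM and 180 and 183 in KO. Probe sets may read different Nfatc1 isoforms, but which isoform each one reads is not given in the sources used here.

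Cd69, a C-type lectin that holds thymocytes in the thymus by removing the egress receptor S1pr1 from the surface, read 2934 and 3588 in LM and 3643 and 6093 in KO (1428735_at). KO array 2 stood well above the other 3, while KO array 1 exceeded the higher LM array only slightly. The log2 mean was 11.66 ± 0.17 (SD, n = 2) in LM and 12.22 ± 0.56 (SD, n = 2) in KO, a difference of 0.56 ± 0.20, or 1.47-fold (95% interval 1.09 to 1.99), with a limma adjusted p of 0.427. In the alternative fits with 1 value per gene, Cd69 passed the threshold only without LM array 2 (0.67) and without KO array 1 (0.95). Each of these fits left 1 array in a group, and without LM array 2 the spread of Cd69 itself did not count. Without KO array 2 the difference was 0.16.

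Cd5, an inhibitory receptor whose surface level is set by TCR signal strength during selection, read 6551 and 6186 in LM and 6060 and 5742 in KO (1418353_at). The deposited signals of KO lay below those of LM, while the normalized values overlapped. The difference was -0.10 ± 0.10 (limma adjusted p = 0.860), with a 95% interval of -0.32 to 0.11.

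**Figure D2:**
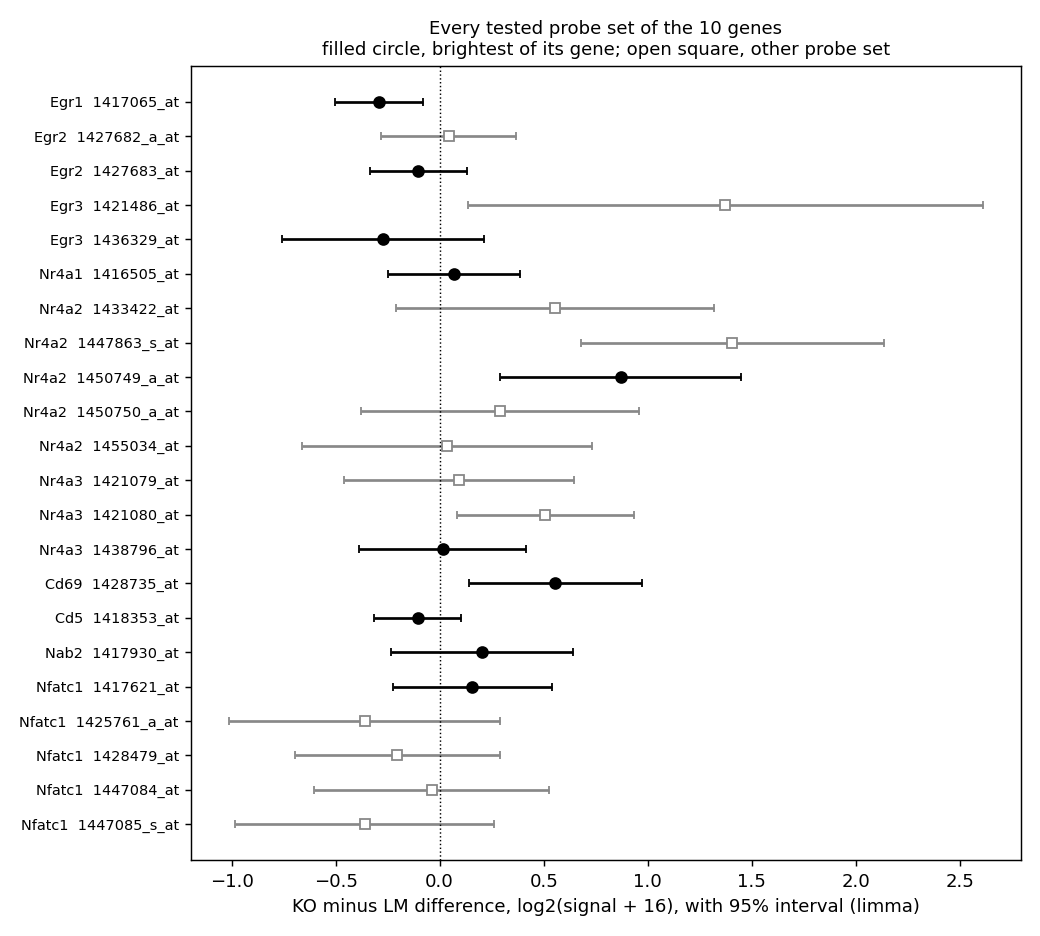
KO minus LM difference on the log2(signal + 16) scale with its 95% interval for the 22 tested probe sets, from limma fitted on all 21795 single-gene probe sets above background. The 5 Nr4a2 and 3 Nr4a3 probe sets lie to the right of 0, while those of Egr2, Egr3 and Nfatc1 lie on both sides.

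Taking each probe set by itself, 0 of the 22 were called in limma, against 0.229% of all probe sets tested, and 6 had an unadjusted p below 0.05, against 7.97%. Groups did not overlap for 9 of the 22, against 36.7% of all probe sets. KO was higher in 7 of these, against 18.3% of all probe sets, and lower in 2, against 18.5%. Of the 5 genes with more than 1 tested probe set, Nr4a2 and Nr4a3 kept 1 direction, and Egr2, Egr3 and Nfatc1 did not. Several of these probe sets are assigned to the same gene, so their counts are not counts of independent measurements.

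The KO arrays lay farther apart than the LM arrays for 8 of the 10 genes. The median SD of the 10 genes was 0.28 in KO and 0.08 in LM, against 0.16 and 0.14 over all genes tested. KO array 2 exceeded KO array 1 for 8 of the 10 genes, against 48.8% of all genes, with a median difference between these 2 arrays of 0.30. The gap was 0.79 for Cd69, 0.64 for Nr4a2, 0.48 for Nab2, 0.45 for Nr4a3 and 0.41 for Nfatc1, and it was 0.09 for both Egr1 and Nr4a1. Egr3 (-0.37) and Cd5 (-0.03) were lower on KO array 2. By their brightest probe sets, the larger KO levels of Nr4a2 and Cd69 therefore rest more on KO array 2 than on KO array 1. Of the 5 tested Nr4a2 probe sets, 1433422_at alone ran the other way, at 0.83 without KO array 2 and 0.28 without KO array 1. Without KO array 2 the median of the 10 genes was -0.07, and without KO array 1 it was 0.18.

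**Figure D3:**
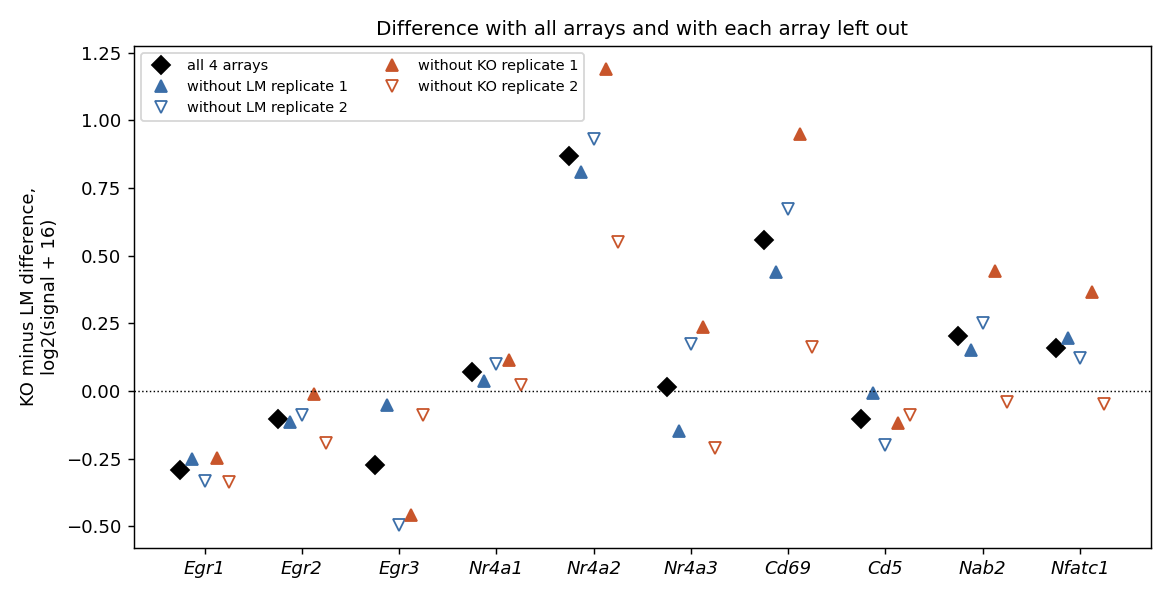
KO minus LM difference of each gene on the log2(signal + 16) scale with all 4 arrays (black) and with each array left out in turn (triangles). Egr1 stays between -0.34 and -0.25 and Nr4a2 between 0.55 and 1.19, while Nr4a3, Nab2 and Nfatc1 change sign without KO replicate 2.

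Markers of other cells that the gate could hold were read beside these values. The 6 regulatory T cell markers, a lineage that is selected by strong TCR signals, were all higher in KO, against 50.3% of all genes, with summed signals of 8849 and 8852 in LM and of 13540 and 12420 in KO. Izumo1r, 1 of the 6, was called, against 0.275% of all genes. Il2ra, the CD25 chain selected against in the sort, differed by 0.72 ± 0.19 (limma adjusted p = 0.221). Within the KO pair, all of these markers except Nrp1 had a higher deposited signal on KO array 1 than on KO array 2. For Il2ra, Ikzf2, Izumo1r and Ctla4 the gap was small. Foxp3, the lineage factor, read 794 on KO array 1 and 363 on KO array 2 (499 and 289 in LM). The coreceptor Nrp1 alone ran the other way, at 338 and 536 on these arrays (163 and 253 in LM), the order of Nr4a2 and Cd69. Il2ra read 963 and 949, Ikzf2 2954 and 2742, Izumo1r 7706 and 7091, and Ctla4 786 and 742. Of the double-positive thymocyte markers, 5 of the 6 tested were higher in KO, against 50.3% of all genes, and 0 were called. The double-positive markers had no common order within the KO pair. The recombinase gene Rag1 read 192 on KO array 1 and 531 on KO array 2 (237 and 358 in LM). Rag2 read 143 and 172 on these arrays (78.6 and 124 in LM), and Arpp21 read 101 and 164 (126 and 114 in LM). The CD8 coreceptor genes ran the other way in KO, with Cd8a at 926 and 625 (756 and 702.5 in LM) and Cd8b1 at 629 and 479 (458 and 390 in LM). Dntt, the terminal transferase of receptor recombination, read 2058 and 2186 (1865 and 2453 in LM). It was the tested marker of this list that was not higher in KO (-0.02). The summed signal of the 8 double-positive markers found was 3594 and 4239 in LM and 4132 and 4295 in KO. The part of these cells in the differences above was not tested. Of the markers found, 2 of 5 for B cells, 2 of 6 for macrophages and monocytes (Csf1r and Lyz2), 4 of 6 for dendritic cells and 0 of 4 for granulocytes were above background on at least 2 arrays. The dendritic cell factor Zbtb46, at 489 and 506 in LM and 658 and 430 in KO, was above it on all 4, and H2-Aa, H2-Ab1 and Siglech were on 3. The summed signal of the dendritic cell list was 831 and 991 in LM and 1023 and 746 in KO.

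The wider pathway was read through 5 lists holding 123 entries, of which 111 had a single-gene probe set and 100 were tested; 0 of the 100 were called, against 0.275% of all genes, and 60 were higher and 40 lower in KO. Among 21 immediate-early genes tested the median difference was 0.08 (0 called, 3 with an unadjusted p below 0.05). Dusp4, a nuclear ERK phosphatase induced by ERK signals, was nearest to a call: it read 291 and 259 in LM and 885 and 553 in KO, 1.29 ± 0.26 with a limma adjusted p of 0.0776. KO array 1 was the higher of the pair here, unlike for Cd69 and Nr4a2. Dusp4 passed in 8 of the 15 alternative fits, while without KO array 1 its difference was 0.95 and it did not pass. Dusp6, the cytoplasmic ERK phosphatase, differed by 0.37 ± 0.16, the AP-1 member Jund by -0.23 ± 0.09 and the TGF-beta-inducible repressor Klf10 by -0.31 ± 0.15, with limma adjusted p-values of 0.550, 0.480 and 0.645. The median of this list was -0.02 without LM array 1.

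In the cascades that lead to these genes no gene was called. In the ERK cascade 13 genes were tested (median -0.01, 0 called and 0 with an unadjusted p below 0.05), with the ternary complex factor Elk4 at -0.16 ± 0.09, the kinase Braf at 0.33 ± 0.17, Nras at -0.19 ± 0.12 and the ERK-activated kinase Rps6ka3 at -0.23 ± 0.17. In the calcineurin and NFAT pathway 22 were tested (median -0.04, 0 called, 1 with an unadjusted p below 0.05). That gene was Ppp3cc, a catalytic subunit of calcineurin, which read 790 and 725 in LM and 476 and 457 in KO, -0.68 ± 0.20 with a limma adjusted p of 0.307. Both KO arrays were lower, by similar amounts. Homer3, which competes with calcineurin for NFAT, differed by -0.36 ± 0.26, Nfatc2 by -0.22 ± 0.19 and the calcineurin regulator Rcan3 by 0.18 ± 0.16.

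Of the genes known to be induced along with the 10 at selection, 29 were tested. Of these, 23 were higher in KO, against 50.3% of all genes, with a median of 0.12 (0 called, 6 with an unadjusted p below 0.05). The transcriptional repressor Bhlhe40 did not reach background in LM (39.9 and 11.5) and exceeded it on both KO arrays (219 and 175), at least 1.81-fold higher with a limma adjusted p of 0.115. Irf4, whose level in T cells follows TCR signal strength, read 956 and 1479 in LM and 1693 and 2149 in KO (0.69 ± 0.21, limma adjusted p = 0.334). Without LM array 2 it passed the threshold (0.996), in a fit where its own spread did not count. It differed by 0.38 without LM array 1 and by 0.43 with the mean of its probe sets. The inhibitory receptor gene Pdcd1 read 258 and 343 in LM and 456 and 648 in KO (0.84 ± 0.26, adjusted p = 0.348). Ikzf2 read 1943 and 2122 in LM and 2954 and 2742 in KO (0.49 ± 0.13, adjusted p = 0.245). It and Ctla4 are also among the regulatory T cell markers above. Among 15 corepressors and partners the median was 0.05 (0 called, 1 with an unadjusted p below 0.05), with the chromatin remodeller Chd4 at 0.24 ± 0.11, Ets1 at -0.11 ± 0.08, Mef2a at 0.15 ± 0.14 and Rxra, a partner of Nr4a1 and Nr4a2, at 0.33 ± 0.32.

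**Figure D4:**
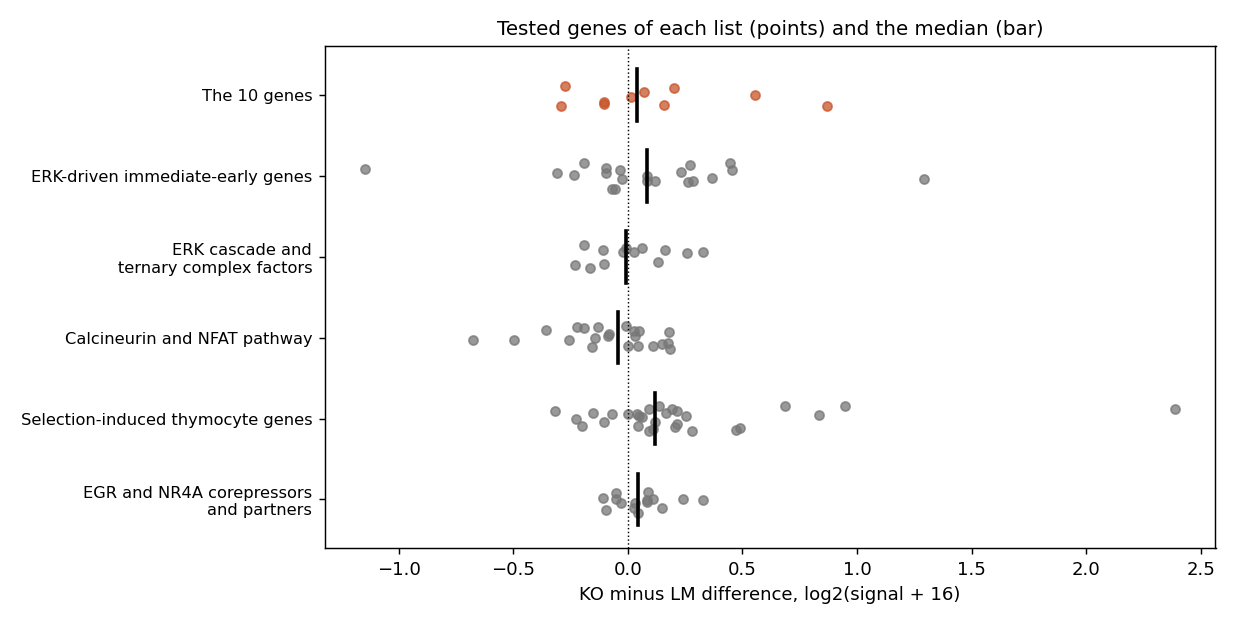
KO minus LM difference on the log2(signal + 16) scale of each tested gene (points) in the 10 TCR-induced genes and the 5 pathway lists, with each median as a bar. Medians lie between -0.04 and 0.12, and single genes such as Dusp4 and Bhlhe40, whose fitted value is drawn although it is below background in LM, stand to the right. The immediate-early gene Fos, whose groups overlapped, stands to the left at -1.145 ± 0.63.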

How the data were processed

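The intensities deposited by the authors are linear, 1 value for each of 45101 probe sets on each array, and their mean on every array was 500.0 once 2% of values at either end were trimmed. The program that made these intensities is not given in the sources used here. RNA was amplified with WT-Ovation Pico, per the labels' protocols. Of the 45037 probe sets left after removing 64 controls, the platform annotation gave 34945 a single gene. After log2(value + 16), a scale on which changes of dim genes come out too small, arrays were quantile normalized. Background was set per array from 80 probe sets of olfactory or vomeronasal receptors, at their 95th percentile (106, 92.3, 98.4 and 77.7 on LM 1, LM 2, KO 1 and KO 2). Each gene was represented by its brightest probe set, and tested if above background on at least 2 arrays.

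limma 3.58.1 in R 4.3.3 (eBayes with an intensity trend, genotype only) was fitted on all genes, and separately on all single-gene probe sets. P-values are two-sided and Benjamini-Hochberg adjusted. The number of arrays and the signal over background limit precision: the median SE over genes was 0.22. The gene fit was also run on data simulated from the normal model that limma assumes, without an intensity trend. That run checks the code, not how well the model suits these arrays. Tables and plots used Python 3.11.15, pandas 2.3.3 and matplotlib 3.10.9.

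The 10 genes and the lists were chosen with earlier results of these data known. Named from each list were called genes or, failing that, the 4 with the smallest p. Fos was named as well, for the lowest difference in its list. The marker genes named were picked from their lists after their values were seen. No correlation with other genes is given, since 4 arrays are too few. Where the order of the KO pair is set beside that of Nr4a2 and Cd69, it is a description only. Alternatives changed the filter, normalization, pseudocount, moderation and probe set rule, added a replicate block, or left out 1 array.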

Additional observations from a re-analysis of the deposited data

How the results depend on the processing

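Of 150 alternative values of the 10 genes, 139 kept direction and side of the threshold, 2 passed it (Cd69, given above) and 9 changed sign. Fits without an LM array used infinite prior degrees of freedom, so a gene's own spread did not count there. With 1 array left out, from 0 to 1 of the 10 genes and from 0 to 3 of the 22 probe sets were called, and from 0 to 1 gene of both the immediate-early and the selection-induced list. Median centring, which shifted the median of all genes to -0.05, gave 1 call among the probe sets (1447863_s_at of Nr4a2) and 1 among the selection-induced genes (Bhlhe40). The immediate-early list held 1 call (Dusp4) with median centring, with signals as deposited, with the filter on all 4 arrays, with the mean of probe sets above background and with the replicate block. The labels give no pairing by replicate number, and the deviations of same-numbered arrays from their group means correlated at -0.017 over genes. The block raised the calls over all genes from 31 to 43. With it 0 of the 10 genes were called, and it changed no other call among the 10 genes, the 22 probe sets and the named list genes. Averaging all probe sets, or those above background, turned Egr3 to 0.55, Nfatc1 to -0.16 and Cul3 to 0.041. Median centring turned Nr4a3 to -0.044 and 1427682_a_at of Egr2 to -0.015. Leaving out 1 array gave ranges that crossed 0 for Nr4a3 (-0.21 to 0.24), Nab2 (-0.040 to 0.44), Nfatc1 (-0.049 to 0.36), Cul3 (-0.053 to 0.032), Rcan3 (-0.070 to 0.44) and Rxra (-0.0082 to 0.67), and for the probe sets 1427682_a_at (-0.15 to 0.24), 1455034_at (-0.14 to 0.21), 1421079_at (-0.13 to 0.31), 1428479_at (-0.51 to 0.10) and 1447084_at (-0.25 to 0.17). List medians with 1 array left out ran from -0.024 to 0.037 for immediate-early genes, -0.046 to 0.064 for the ERK cascade, -0.093 to -0.0025 for calcineurin and NFAT, 0.090 to 0.16 for selection-induced genes and 0.012 to 0.073 for corepressors and partners, and that of the 10 genes was -0.012 with median centring. The cause was not tested. Without the filter or without the eBayes trend, 0 of 18193 and 0 of 11255 genes passed in limma, with 1247 and 922 at an unadjusted p below 0.05.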
